A study of Mus musculus with 6 samples.

Results

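Cell division in the inguinal subcutaneous white adipose tissue (SC-WAT) of *Egr1*+/+ and *Egr1*-/- mice was followed through 42 genes of DNA replication and mitosis. They were chosen by name, from genes whose products copy DNA, drive entry into mitosis, separate the chromosomes or divide the cell. Each of the 42 matched 1 of the 47069 gene identifiers of the count files, and all 42 were among the 17667 genes with enough counts to be tested. The samples were whole fat pads of 2-week-old female C57BL/6 mice, 3 *Egr1*+/+ and 3 *Egr1*-/-, with 1 total RNA library per mouse, depleted of ribosomal RNA. In the *Egr1*-/- mice a *LacZ* sequence had been inserted in the 5′ untranslated part of *Egr1* in every cell, together with a frameshift ahead of the part that encodes the DNA-binding domain. EGR1 is a zinc finger transcription factor that is switched on quickly by growth signals. The mice came from 4 litters, and only 1 mouse of each genotype had a littermate of the other genotype among them. No mouse received a treatment.

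Dividing cells make these transcripts in waves. Around the entry to S phase, E2F factors turn on cyclin E and the genes for the replication machinery, among them the MCM helicase that unwinds DNA. Later, in G2 and mitosis, the MuvB complex with B-MYB and FOXM1 turns on cyclin B, the mitotic kinases, the kinesins and the proteins of the spindle, often through a CHR element near the gene's start, and in resting cells the related DREAM complex holds the same genes silent. In young fat pads the dividing cells include precursors of adipocytes, cells of blood vessels and immune cells. In RNA of a whole tissue, fewer dividing cells and less RNA per dividing cell cannot be told apart.

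The libraries held 29661984 to 42357981 counts, of which 50% to 66.3% were mitochondrial, so that 12572968 to 18449896 counts per mouse remained for all other genes. Levels are given as CPM, counts relative to library size, after TMM scaling of the libraries, and per kilobase of exon (RPKM) wherever genes are compared with each other. *Egr1* itself was at 10.3, 8.02 and 16.5 CPM in *Egr1*+/+ replicates 1 to 3 and at 3.09, 2.71 and 1.84 CPM in *Egr1*-/- replicates 1 to 3, with no overlap and a log2 fold change of -2.19 (edgeR adjusted p = 0.0878). Adipocyte markers summed to between 6734 and 8475 CPM in the 6 mice, and no marker of the 8 cell types listed was at 0 in all mice of a genotype. Every pair of mice of the same genotype differed by more than sampling noise.

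The start regions of the genes were searched for letters that the factors of these waves are known to bind. A stretch from 250 bases before to 50 bases after the start was at hand in RefSeq (GRCm38.p6) for 34 of the 42 genes. In the lines below, written 5′ to 3′ in the direction of the gene, capitals mark a CHR word, spelled TTTGAA on either strand, in 5 genes of mitosis that recur in the results. They are *Mki67* (chr7:135716460-135716489, minus strand, first capital at position -98 from the start), *Top2a* (chr11:99024195-99024224, minus strand, -23), *Cdk1* (chr10:69352910-69352939, minus strand, -15), *Ube2c* (chr2:164769888-164769917, plus strand, -29) and *Kif23* (chr9:61946780-61946809, minus strand, 3). The last line has in capitals the E2F word nearest to the start of *Mcm6* (chr1:128359734-128359763, minus strand, -47). This replication gene had the lowest p of the 42 between the genotypes in edgeR, short of the adjusted threshold there.
Mki67: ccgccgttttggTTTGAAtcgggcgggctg
Top2a: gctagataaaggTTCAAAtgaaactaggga
Cdk1: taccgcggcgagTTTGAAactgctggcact
Ube2c: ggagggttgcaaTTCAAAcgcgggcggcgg
Kif23: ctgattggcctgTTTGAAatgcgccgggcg
Mcm6: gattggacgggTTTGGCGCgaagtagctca

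A CHR word (TTTGAA or TTCGAA, both strands) stood in 20 of the 34 genes, or 58.8%, against 21.7% of the 27025 genes with such a stretch. It was in 18 of 23 genes of G2 and mitosis and in 2 of 11 genes of replication and S-phase entry, *Mcm2* and *Mcm7*. An E2F word (TTTGGCGC, TTTCCCGC, TTTCGCGC or TTTGCCGC, both strands) had the opposite distribution, with 4 of 11 against 1 of 23. Its 5 genes (14.7%, against 2.6% of all genes) were *Mcm3*, *Mcm5*, *Mcm6*, *Mcm7* and *Cdk1*. CCAAT, the letters that NF-Y binds on either strand, were in 27 of 34, or 79.4%, against 41.1%. The EGR1 words GCGTGGGCG and GCGGGGGCG were present in 1 of the 34 genes, *Ccnb1*, and in 3.93% of all genes. The E2F and CHR words do not contain each other, and a match gives letters only, not binding.

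None of the 42 genes passed an adjusted p of 0.05 between the genotypes in edgeR (quasi-likelihood, Benjamini-Hochberg over all genes), where 3 of 17667 genes (0.017%) did. DESeq2 called 1 of the 42, *Mcm6*, beside 2.11% of all genes. At an unadjusted p under 0.05 the test held 1 of the 42, *Mcm6*, lower in *Egr1*-/-, where 10.7% of all genes tested passed in either direction, 5.6% lower and 5.06% higher. The fitted log2 fold change, *Egr1*-/- against *Egr1*+/+, was below 0 for 36 of the 42 genes and above 0 for 6, *Mcm2*, *Mcm4*, *Pcna*, *Rrm2*, *Ccne2* and *Foxm1*, while 49.9% of all genes were below 0. The median over the 42 was -0.26, the range -0.69 to 0.13, and the median over all genes 0.00. Their adjusted p-values in edgeR ran from 0.176 to 0.979.

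One mouse stood apart in these genes. *Egr1*+/+ replicate 1 had the highest level of the 6 mice in 37 of the 42 genes and the lowest in 0, while it was highest in 16.9% of all genes tested. Without this mouse 26 of the 42 genes were higher in *Egr1*-/- and 16 lower, the median log2 fold change was 0.05, and 20 genes changed direction. Of all genes tested without it, 47.9% were higher and 52.1% lower. The number at an unadjusted p under 0.05 in edgeR stayed at 1 of 42, again *Mcm6*, beside 8.73% of all genes. The lower median in *Egr1*-/- mice thus came with 1 *Egr1*+/+ mouse.

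**Figure D1:**
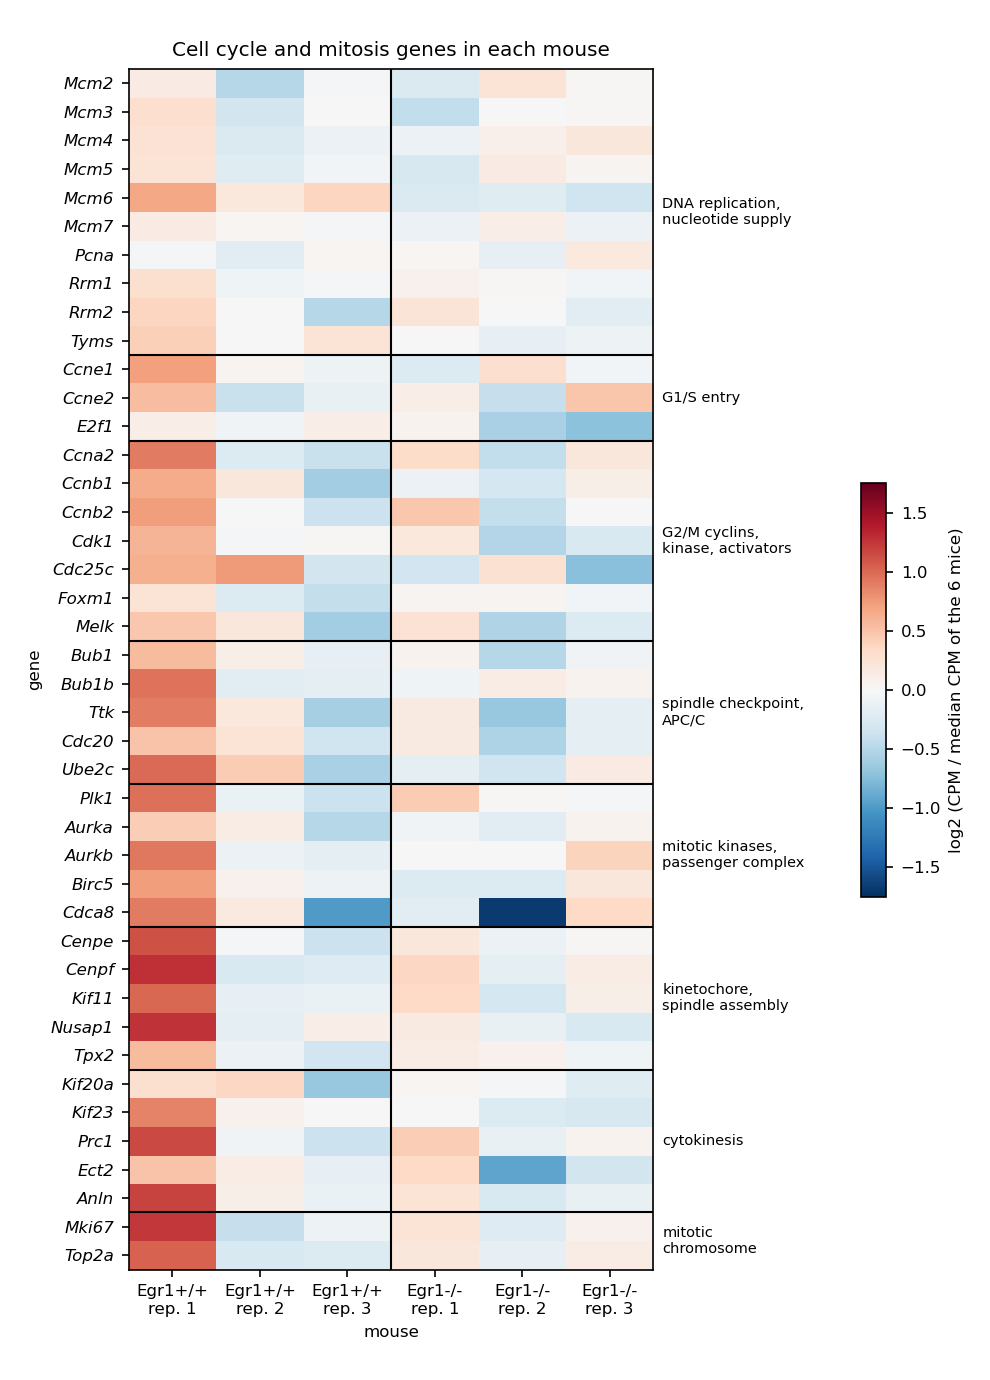
Level of each of the 42 genes (vertical axis, grouped by role) in each mouse (horizontal axis), as log2 of its CPM over the gene's median CPM in the 6 mice. The column of *Egr1*+/+ replicate 1 is red in nearly every line, with the highest value of the 6 mice in 37 of 42 genes, and *Mcm6* is above its median in all 3 *Egr1*+/+ mice.

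The summed level of the 42 genes was 595, 303 and 309 CPM in *Egr1*+/+ replicates 1 to 3 and 363, 304 and 340 CPM in *Egr1*-/- replicates 1 to 3. The genotype means, 402 ± 167 and 336 ± 29.6 CPM (SD, n = 3), differed by less than the spread of the *Egr1*+/+ mice. *Mki67* had the largest part of this sum, 149 CPM in *Egr1*+/+ replicate 1 and 47.8 to 74.7 CPM in the other mice. Replicate 1 of *Egr1*+/+ was highest in 37 of the 42 genes, so its excess was not in *Mki67* alone.

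The excess in *Egr1*+/+ replicate 1 differed by role and was larger for mitosis than for replication. Over the 29 genes of G2, mitosis and cytokinesis the sum was 454, 197 and 191 CPM in *Egr1*+/+ mice and 254, 190 and 225 CPM in *Egr1*-/- mice. Over the 10 replication genes it was 129, 99.5 and 110 CPM, against 101, 108 and 106 CPM, so that this mouse led by less. As the median over genes of the ratio of this mouse to the median of the other 5 mice, replication was at 1.23, G1/S entry at 1.59, the G2/M cyclins at 1.67, the cytokinesis genes at 1.85, the mitotic kinases at 1.89, the spindle checkpoint at 2.01, the kinetochore and spindle at 2.21 and the mitotic chromosome pair at 2.38. All genes tested had a median ratio of 1.0, with 0.563 and 1.66 as their 5th and 95th percentiles.

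Over all genes the same ratio moved little with gene length, from 0.989 in genes under 2000 bases of exon to 1.02 above 8000 bases. In the members it was between 1.49 and 1.69 in the 4 classes up to 8000 bases. It was 2.33 in the 7 members above 8000 bases. Of these 7, the replication gene *Rrm1* was at 1.23, and the others were genes of mitosis and cytokinesis. Length and role thus cannot be told apart in this class. The mitochondrial share of *Egr1*+/+ replicate 1, 55.4%, lay within the range of the others. Its erythroid markers summed to 264 CPM, above the 86.0 to 184 CPM of the other mice, and its 6 mammary epithelial markers to 2.53 CPM, below their 7.44 to 13 CPM. Stromal progenitor markers, at 434 CPM, were close to those of the other two *Egr1*+/+ mice (452 and 442 CPM), and macrophage markers, at 284 CPM, were lower than theirs (365 and 343 CPM). The part of these markers in the excess of cell cycle transcripts was not tested.

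**Figure D2:**
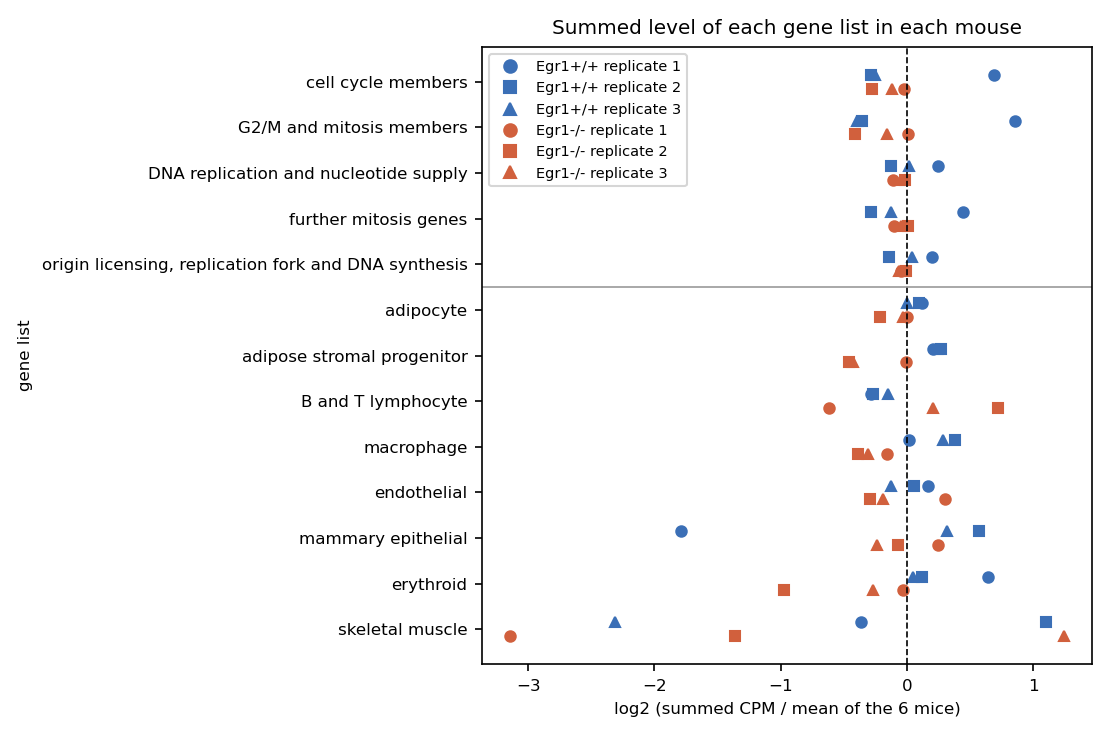
Summed CPM of each gene list (vertical axis) in each mouse, as log2 of the sum over the mean of the 6 mice (horizontal axis); colours are genotypes and shapes replicates. *Egr1*+/+ replicate 1 is rightmost in each cell cycle list plotted, at 595 CPM for the 42 genes, leftmost in mammary epithelial markers, at 2.53 CPM, and rightmost in erythroid markers, at 264 CPM.

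*Mki67*, which encodes the Ki-67 protein that coats mitotic chromosomes and is the usual stain for dividing cells, had the highest level of the 42 per length, 7.48 RPKM over the 6 mice. It was at 149, 47.8 and 59.7 CPM in *Egr1*+/+ replicates 1 to 3 and at 74.7, 53.8 and 66.7 CPM in *Egr1*-/- replicates 1 to 3. *Egr1*+/+ replicate 1 was far above the 5 others, and these lay close together. Over all 6 mice the log2 fold change was -0.39 (SE 0.369, edgeR adjusted p = 0.766), and it was 0.26 without that mouse, with a 95% interval from -0.15 to 0.66. These values rest on 1436 to 5116 counts per mouse.

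*Top2a* encodes topoisomerase II alpha, which untangles sister chromatids. Its levels were about 63, 25 and 26 CPM in *Egr1*+/+ mice and 35, 28 and 34 CPM in *Egr1*-/- mice. All 3 *Egr1*-/- mice were above *Egr1*+/+ replicates 2 and 3 and below replicate 1. The log2 fold change of -0.24 (SE 0.317, edgeR adjusted p = 0.839) became 0.30 without replicate 1, with a 95% interval from -0.03 to 0.63.

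Among the replication genes *Mcm6*, a subunit of the MCM2-7 helicase, differed most between the genotypes. It is on chromosome 1 (chr1:128331590-128359664, minus strand). Its level was 19.7, 14.0 and 16 CPM in *Egr1*+/+ mice and 10.4, 10.7 and 9.70 CPM in *Egr1*-/- mice. Every *Egr1*-/- mouse was below every *Egr1*+/+ mouse, the only such case among the 42 genes, beside 16.3% of all genes tested without overlap in either direction and 8.1% in this direction. This made a log2 fold change of -0.69 (95% interval -1.03 to -0.36, SE 0.148), a ratio of 0.62, with an unadjusted p of 0.00111 and an adjusted p of 0.176 in edgeR. The exact two-sided permutation test gave 0.1, the smallest p that 3 mice against 3 allow. DESeq2, which called 2.11% of all genes, gave *Mcm6* an adjusted p of 0.0102, and edgeR without a filter on low counts, which called 1.44%, one of 0.00865. *Mcm6* passed the threshold in none of the other alternatives, all of them edgeR fits. There its adjusted p was 0.306 without *Egr1*+/+ replicate 1 and reached 0.674 at the highest. The fit without a filter had infinite prior degrees of freedom (5.07 in the main fit). Its p-values thus take little account of a gene's own spread between mice. For *Mki67*, high in 1 mouse, it gave an unadjusted p of 0.0118, against 0.315 in the main edgeR fit. With each mouse left out in turn the log2 fold change stayed between -0.80 and -0.57, and it was -0.57 without *Egr1*+/+ replicate 1.

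The summed markers of adipocytes, stromal progenitors, macrophages and erythroid cells were lower in *Egr1*-/- mice as well, with no overlap. For the 8 adipocyte markers the sums were 7838 to 8475 CPM against 6734 to 7829 CPM, with 5 of 8 below 0, and the gap between the genotypes was narrow. The 8 stromal progenitor markers summed to 434 to 452 CPM against 273 to 372 CPM, with 6 of 8 below 0, the 6 macrophage markers to 284 to 365 CPM against 215 to 252 CPM, with 6 of 6 below 0, and the 6 erythroid markers to 175 to 264 CPM against 86.0 to 166 CPM, with 5 of 6 below 0. The other marker lists overlapped between the genotypes. Of the 8 B and T lymphocyte markers, 8 were above 0, with sums of 92.0 to 101 CPM against 73.1 to 185 CPM. Endothelial, mammary epithelial and skeletal muscle markers had medians of -0.01, 0.09 and -0.68. None of the markers was at 0 in a genotype, and their part in the lower *Mcm6* level was not tested.

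The partners of *Mcm6* in the helicase ring had no such drop in their estimates. Together the other 5 subunits were at 48.3 ± 6.99 CPM in *Egr1*+/+ and 47.9 ± 5.34 CPM in *Egr1*-/- mice (SD, n = 3). *Mcm2*, *Mcm3*, *Mcm4*, *Mcm5* and *Mcm7* had log2 fold changes of 0.12, -0.13, 0.09, -0.03 and -0.07, and the genotypes overlapped in each. Of the RPKM summed over the 6 subunits, *Mcm6* held 24.4%, 23.3% and 23.9% in *Egr1*+/+ replicates 1 to 3 and 18.6%, 15.8% and 15.2% in *Egr1*-/- replicates 1 to 3. Within each genotype these shares lay close together, also in *Egr1*+/+ replicate 1, whose *Mcm6* level was the highest. The genotypes did not overlap in this share, which was looked at because *Mcm6* had the lowest p. The exact two-sided permutation test gave 0.1, the smallest p possible. It adds no support, because the share is built from the same *Mcm6* counts. The shares of *Mcm2* (6.54% to 8.1% against 8.32% to 9.73%) and *Mcm4* (17.4% to 18.4% against 19.9% to 22.6%) did not overlap either, both higher in *Egr1*-/-. Those of *Mcm5* met at 10.8%. Shares of a whole are tied, so a lower share of *Mcm6* raises the others. *Mcm7* shares exon letters with *Ap4m1* and *Cops6* on the opposite strand, and the strand setting of the counting is not given in the sources used here.

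**Figure D3:**
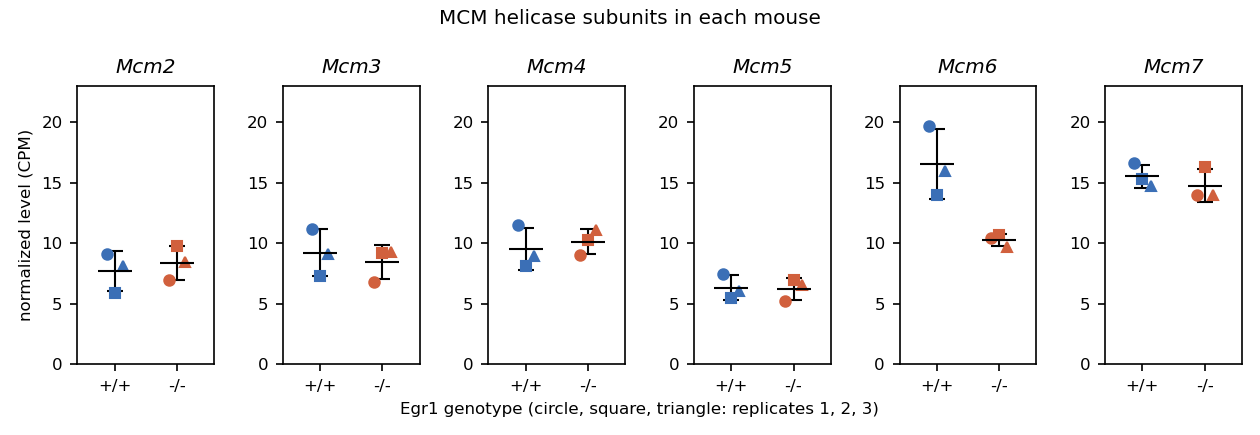
CPM (vertical axis) of the 6 MCM helicase subunits in *Egr1*+/+ (blue) and *Egr1*-/- (orange) mice, with the mean and SD (bars) of 3 mice and the replicate number as the shape. *Mcm6* separates the genotypes, with 14.0 to 19.7 against 9.70 to 10.7 CPM, and the other 5 subunits overlap.

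*Pcna*, the sliding clamp of the DNA polymerases, had the highest level per length of the replication genes, 6.15 RPKM. It measured 14.6, 13.1 and 15.3 CPM in *Egr1*+/+ mice and 15.3, 13.5 and 16.8 CPM in *Egr1*-/- mice. It was the 1 gene of the 42 with a ratio of *Egr1*+/+ replicate 1 to the other mice below 1.0, at 0.953. The log2 fold change of 0.08 had a 95% interval from -0.21 to 0.37, which leaves room for a small change either way. The 2 processed copies of *Pcna* in the annotation held between 0 and 3 counts per mouse.

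The nucleotide suppliers moved within similar limits. *Rrm1* and *Rrm2*, the subunits of ribonucleotide reductase, had log2 fold changes of -0.05 (95% interval -0.33 to 0.24) and 0.03 (-0.55 to 0.61). *Tyms*, thymidylate synthase, was at 9.46, 7.06 and 8.35 CPM in *Egr1*+/+ and 7.14, 6.42 and 6.69 CPM in *Egr1*-/- mice. Its *Egr1*-/- values were on the low side with 1 overlapping pair, and its log2 fold change was -0.30 (edgeR adjusted p = 0.567). For the 10 replication genes as a group, 4 were above 0 and 6 below, with a median of -0.04.

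Of the 3 genes of S-phase entry, *E2f1*, an activator of the replication genes, had the lowest p. Its levels were 2.65, 2.36 and 2.67 CPM in *Egr1*+/+ and 2.55, 1.65 and 1.49 CPM in *Egr1*-/- mice. Only *Egr1*-/- replicate 1 reached the *Egr1*+/+ range, and the log2 fold change was -0.43 (SE 0.264, edgeR adjusted p = 0.617), also -0.43 without *Egr1*+/+ replicate 1. *Ccne2*, encoding cyclin E2, was at 5.62, 2.96 and 3.53 CPM against 4.20, 2.91 and 5.43 CPM, with a log2 fold change of 0.05. *Ccne1*, encoding cyclin E1, was at -0.25. *Ccne2* shares exon letters with the more highly counted *Ints8* on the other strand.

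The cyclins and the kinase of G2/M showed the same outlying mouse. *Ccna2*, encoding cyclin A2, had the highest level per length of these 7 genes, 1.92 RPKM, with 13.3, 6.03 and 5.40 CPM in *Egr1*+/+ and 8.91, 5.29 and 8.18 CPM in *Egr1*-/- mice. Only replicate 1 of *Egr1*+/+ exceeded every *Egr1*-/- mouse, and the log2 fold change went from -0.14 to 0.37 without it. *Ccna2* shares exon letters with the more highly counted *Exosc9* on the other strand. *Cdk1*, encoding the kinase that drives mitosis, was at 5.56, 3.63 and 3.71 CPM against 4.17, 2.58 and 3.04 CPM. Here *Egr1*-/- replicates 2 and 3 were below all *Egr1*+/+ mice and replicate 1 was not, and the log2 fold change of -0.40 (SE 0.254, edgeR adjusted p = 0.643) was -0.19 without *Egr1*+/+ replicate 1.

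*Ccnb1* and *Ccnb2*, encoding the B cyclins that activate CDK1, were at -0.26 and -0.12 on the log2 scale, and at 0.05 and 0.23 without that mouse. *Ccnb1* is the member with an EGR1 word, and its levels were 3.49, 2.56 and 1.46 CPM in *Egr1*+/+ and 2.07, 1.81 and 2.39 CPM in *Egr1*-/- mice. The *Egr1*-/- values all lay inside the *Egr1*+/+ range. *Foxm1*, encoding a transcription factor of mitotic genes, had the highest log2 fold change of the 42, 0.13 (95% interval -0.41 to 0.67). *Melk*, encoding a kinase of dividing cells, was at -0.22. *Cdc25c*, encoding a phosphatase that activates CDK1, had 7 to 20 counts per mouse, the lowest level per length of the 42. It shares exon letters with the more highly counted *Gm3550* on the other strand. Its log2 fold change of -0.61 had a 95% interval from -1.72 to 0.50, which reached far to both sides of 0. *Cdc25c* and the kinesin gene *Kif20a* lie 108 and 227 kb from *Egr1* on the same chromosome, and their log2 fold changes, -0.61 and -0.12, lay within the range of the other members.

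All 5 genes of the spindle checkpoint and of its target, the anaphase-promoting complex, were below 0, from -0.53 to -0.26, with a median of -0.35 that became -0.14 without *Egr1*+/+ replicate 1. *Ube2c*, encoding the ubiquitin-conjugating enzyme of that complex, was at 5.97, 4.10 and 2.02 CPM in *Egr1*+/+ and 2.70, 2.36 and 3.30 CPM in *Egr1*-/- mice. The *Egr1*+/+ mice spread over the whole range, and the log2 fold change of -0.53 (SE 0.357, edgeR adjusted p = 0.662) was -0.14 without replicate 1. Its exons share 592 bases with the muscle troponin gene *Tnnc2* on the other strand, and skeletal muscle markers ranged from 263 to 5511 CPM between mice, with *Egr1*+/+ replicate 2 and *Egr1*-/- replicate 3 the highest. The part of muscle reads in *Ube2c* was not tested. *Bub1b*, encoding the checkpoint protein BUBR1, was at 13.5, 6.19 and 6.22 CPM against 6.69, 7.65 and 7.34 CPM. Every *Egr1*-/- mouse was above *Egr1*+/+ replicates 2 and 3, and the log2 fold change of -0.26 became 0.20 without replicate 1. *Bub1*, *Ttk* and *Cdc20*, encoding 2 checkpoint kinases and the activator of the complex, were at -0.35, -0.47 and -0.33.

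The 5 genes of the mitotic kinases and of the chromosomal passenger complex, which corrects faulty attachments of chromosomes, had a median of -0.17, and of 0.09 without *Egr1*+/+ replicate 1. *Birc5*, encoding the passenger subunit survivin, had both the lowest p and the highest level per length, 0.823 RPKM. It was at 4.28, 2.73 and 2.44 CPM in *Egr1*+/+ and 2.19, 2.2 and 2.97 CPM in *Egr1*-/- mice. Apart from replicate 1 the genotypes overlapped, and the log2 fold change was -0.36 (SE 0.272, edgeR adjusted p = 0.706). *Plk1*, *Aurka* and *Aurkb*, encoding kinases of the centrosome, spindle and centromere, were at -0.12, -0.12 and -0.17, and at 0.39, 0.09 and 0.26 without that mouse. *Cdca8*, encoding the passenger protein borealin, rested on 12 to 80 counts per mouse and had a 95% interval from -1.79 to 0.79. It shares exon letters with the more highly counted *9930104L06Rik* on the other strand.

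For the kinetochore and spindle the excess of replicate 1 was among the largest. *Nusap1*, encoding a protein that bundles spindle microtubules, was at 10.3, 3.83 and 4.66 CPM in *Egr1*+/+ and 4.80, 3.94 and 3.56 CPM in *Egr1*-/- mice. Replicate 1 was at 2.61 times the median of the other mice, which lay close together. Its log2 fold change of -0.61 (SE 0.347, edgeR adjusted p = 0.591) was -0.07 without it. *Cenpe*, encoding a kinesin that moves chromosomes to the spindle equator, was at 26.4, 12.0 and 9.39 CPM against 14.0, 11.4 and 12.4 CPM, with -0.34 for all mice and 0.22 without replicate 1. *Cenpf*, encoding a large kinetochore protein, had the largest ratio of the 42, 2.70, and went from -0.32 to 0.36. *Kif11* and *Tpx2*, whose products set up the 2 spindle poles and nucleate microtubules, went from -0.28 to 0.18 and from -0.04 to 0.25.

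Cytokinesis, the splitting of the cell, was represented by 5 genes with a median of -0.38, and of -0.05 without *Egr1*+/+ replicate 1. *Kif23*, encoding a kinesin of the central spindle, came closest after *Mcm6* to an unadjusted p of 0.05, with 0.0517 in edgeR. Its levels were 15.2, 8.76 and 8.24 CPM in *Egr1*+/+ and 8.34, 7.04 and 6.85 CPM in *Egr1*-/- mice. Only *Egr1*-/- replicate 1 overlapped, with *Egr1*+/+ replicate 3, and the log2 fold change was -0.53 (SE 0.238, edgeR adjusted p = 0.473), or -0.21 without replicate 1 of *Egr1*+/+, with a 95% interval from -0.60 to 0.17. *Anln*, encoding the anillin of the contractile ring, was at 22.0, 10.4 and 8.91 CPM against 11.4, 8.01 and 8.83 CPM. It went from -0.55 to -0.05 when replicate 1 was left out. *Ect2*, encoding an activator of RhoA at the division plane, was at -0.38, *Prc1*, encoding a cross-linker of the central spindle, at -0.26 and *Kif20a* at -0.12. *Prc1* and *Kif20a* share exon letters with *Rccd1* and *Cdc23* on the other strand.

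**Figure D4:**
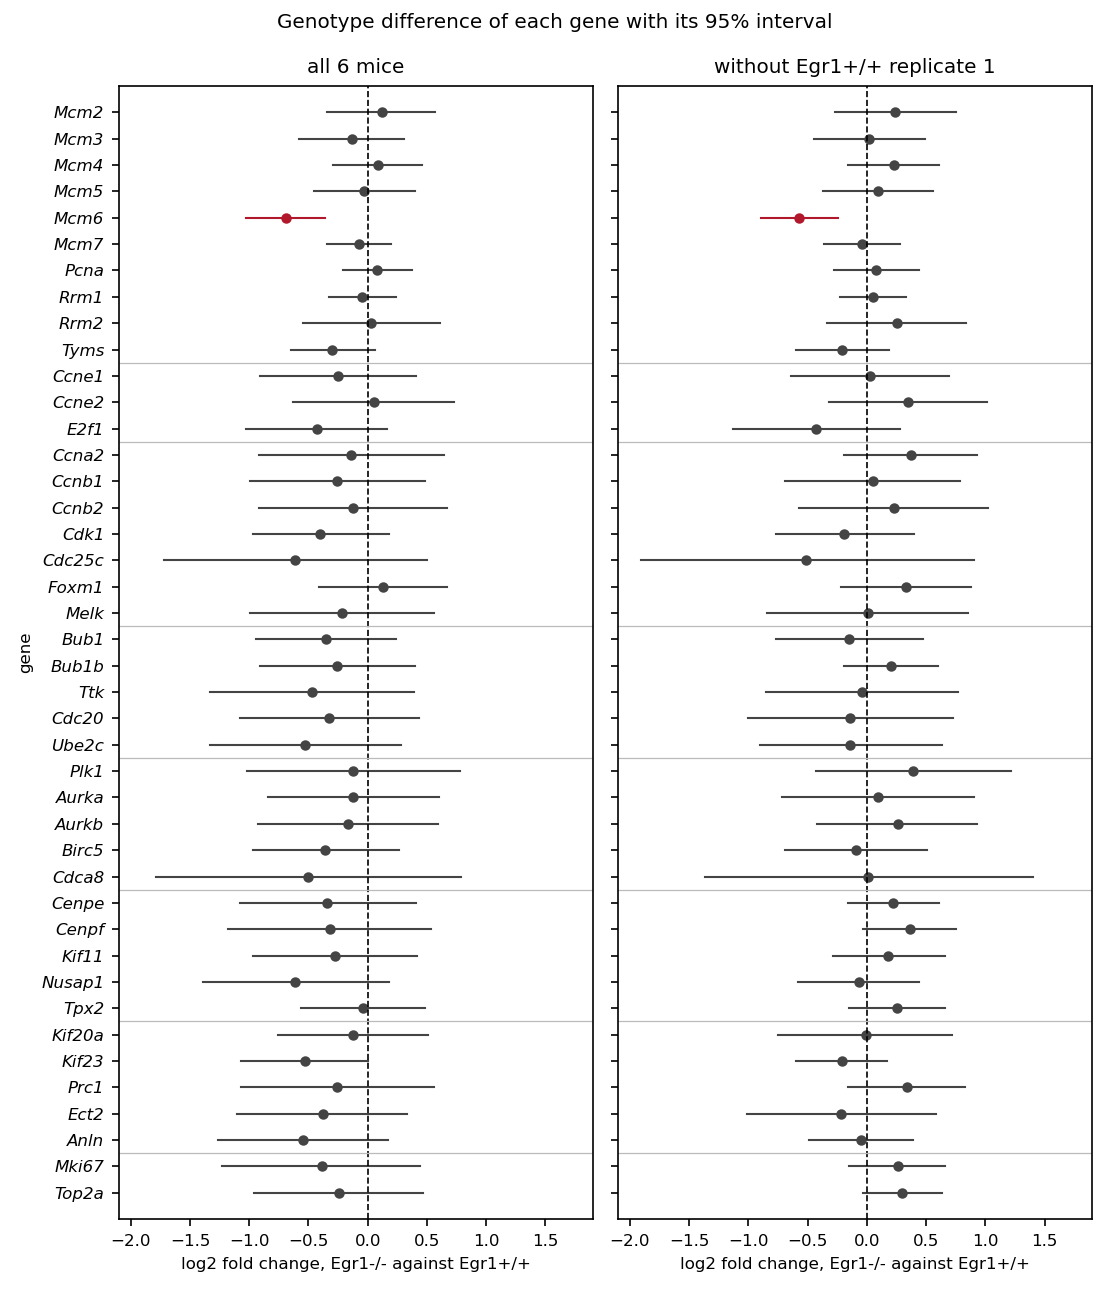
Log2 fold change of each gene, *Egr1*-/- against *Egr1*+/+, with its 95% interval (horizontal axis), for all 6 mice and without *Egr1*+/+ replicate 1. *Mcm6*, in red, is the only gene whose interval lies wholly below 0 in both panels, at -0.69 and -0.57; the median of the 42 genes goes from -0.26 to 0.05.

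Further lists of genes around the 42 members were read from the same fit, and 0 of their genes passed the adjusted threshold in edgeR. DESeq2 called 1 of them, *Cdkn1c*, beside 2.11% of all genes, and edgeR without a filter 2, *Cdkn1c* and *Cdkn1a*, beside 1.44%. The fit without a filter has the limit given beside *Mcm6*. Of 43 genes of origin licensing, the replication fork and DNA synthesis, 14 were above 0 and 29 below, with a median of -0.11 that became -0.01 without *Egr1*+/+ replicate 1, and 0 had an unadjusted p under 0.05. The 3 with the lowest p were *Cdc6*, which loads the MCM helicase, *Pola1*, the catalytic subunit of DNA polymerase alpha, and *Pole2*, a subunit of polymerase epsilon. *Cdc6* was at 2.44, 1.86 and 1.42 CPM in *Egr1*+/+ and 1.14, 1.19 and 1.29 CPM in *Egr1*-/- mice. The genotypes did not overlap, and its log2 fold change was -0.65 (edgeR adjusted p = 0.469). *Pole2* was at 2.74, 2.9 and 2.71 CPM against 2.13, 2.2 and 1.91 CPM, again without overlap, with -0.42 (edgeR adjusted p = 0.511). *Pole*, encoding another subunit of polymerase epsilon, did not overlap in the opposite direction. It was at 6.52, 5.76 and 6.43 CPM against 7.11, 8.36 and 6.92 CPM. Of all genes tested, 16.3% did not overlap in either direction. *Pola1* was at 32.6, 22.0 and 28.3 CPM against 22.2, 23 and 22.0 CPM, with -0.30.

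Among 50 further genes of mitosis, 10 were above 0 and 40 below, with a median of -0.20 that became 0.08 without *Egr1*+/+ replicate 1, which was highest in 39 of the 50. These genes thus showed the same mouse as the members, and 0 of them had an unadjusted p under 0.05 in edgeR. *Kifc1*, encoding a spindle motor, was at 1.69, 0.932 and 0.951 CPM in *Egr1*+/+ and 0.720, 0.742 and 0.582 CPM in *Egr1*-/- mice. The genotypes did not overlap, as in 16.3% of all genes in either direction, and the log2 fold change was -0.80 (edgeR adjusted p = 0.480). *Cenpa* did not overlap in the opposite direction, at 6.99, 6.19 and 5.82 CPM against 7.02, 7.62 and 7.47 CPM. *Depdc1a*, a gene of dividing cells, was at 5.47, 1.93 and 2.18 CPM against 2.31, 1.32 and 1.58 CPM, and *Cdca5*, encoding sororin of the cohesin complex, at 0.291, 0.433 and 0.534 CPM against 0.720, 0.968 and 0.485 CPM.

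The inhibitors of cyclin-dependent kinases (CDK), which hold cells out of the cycle, had 1 gene higher and 1 lower of 6 tested at an unadjusted p under 0.05, beside 10.7% of all genes, and the other 5 further lists had 0. *Cdkn1c*, encoding p57, was at 20.6, 20.1 and 19.2 CPM in *Egr1*+/+ and 13.5, 11.4 and 12.7 CPM in *Egr1*-/- mice. The genotypes were wide apart, without overlap as in 16.3% of all genes in either direction, and each was tight, also in *Egr1*+/+ replicate 1. Its log2 fold change was -0.67 (95% interval -0.93 to -0.41, SE 0.115) with an unadjusted p of 0.000238 and an adjusted p of 0.151 in edgeR, 0.00211 in DESeq2 and 0.00919 in edgeR without a filter. In other edgeR alternatives the adjusted p of *Cdkn1c* was 0.247 without *Egr1*+/+ replicate 1 and reached 0.649 at the highest. The log2 fold change stayed between -0.72 and -0.60 with each mouse left out. The p-value without a filter has the limit given beside *Mcm6*. The summed markers of adipocytes, stromal progenitors, macrophages and erythroid cells given beside *Mcm6* separated the genotypes in the same direction as *Cdkn1c*, and their part in it was not tested. The sums of the other marker lists overlapped.

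*Cdkn1a*, encoding p21, went the other way. It was at 5.21, 9.26 and 6.19 CPM in *Egr1*+/+ and 16.2, 8.94 and 11.9 CPM in *Egr1*-/- mice, with 1 overlapping pair. The log2 fold change was 0.85 (95% interval 0.25 to 1.44, SE 0.264), with an unadjusted p of 0.0106 and an adjusted p of 0.301 in edgeR and of 0.0514 in DESeq2. *Egr1*+/+ replicate 1 had the lowest *Cdkn1a* level of the 6 mice, and without it the log2 fold change was 0.67. *Cdkn1b* (p27) and *Cdkn2c* (p18) were at 0.01 and -0.03, *Cdkn2d* (p19) at 0.42 and *Cdkn2b* (p15) at -0.31, and *Cdkn2a* had 0 to 3 counts per mouse and was not tested. 

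**Figure D5:**
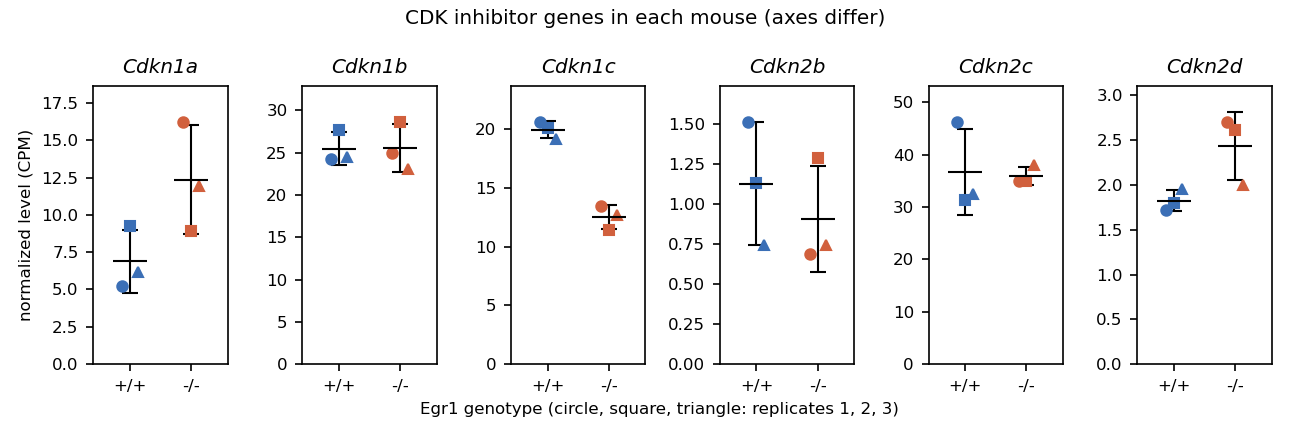
CPM (vertical axes, which differ between panels and start at 0) of the 6 CDK inhibitor genes tested in *Egr1*+/+ (blue) and *Egr1*-/- (orange) mice, with the mean and SD (bars) of 3 mice and the replicate number as the shape. *Cdkn1c* separates the genotypes, with 19.2 to 20.6 against 11.4 to 13.5 CPM, and *Cdkn1a* is higher in *Egr1*-/- mice except for 1 overlapping pair.

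The G1 cyclins and their kinases were spread around 0, with 3 of 6 above, a median of 0.06 and 0 at an unadjusted p under 0.05. Their lowest p-values were those of *Cdk2*, the partner of cyclin E, at 8.27, 8.92 and 8.91 CPM in *Egr1*+/+ and 9.64, 10.2 and 10.3 CPM in *Egr1*-/- mice, of *Ccnd2*, encoding cyclin D2, with a log2 fold change of -0.21, and of *Cdk6*, with 0.17. *Cdk2* did not overlap between the genotypes, as in 16.3% of all genes in either direction. It was a little higher in each *Egr1*-/- mouse, with 0.21 (edgeR adjusted p = 0.616). *Egr1*+/+ replicate 1 was highest in 1 of these 6 genes.

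Of 18 E2F, pocket protein and DREAM-MuvB regulators, 11 were above 0 and 7 below, with a median of 0.04, and *Egr1*+/+ replicate 1 was highest in 4. *E2f2*, an activator, had a log2 fold change of 0.55, *Rb1*, encoding the retinoblastoma protein that restrains E2F, one of 0.19, and *E2f7*, a repressor, one of -0.31. *Rb1* was at 45.3, 48.1 and 50.9 CPM against 55.7, 55.5 and 53.5 CPM, without overlap (edgeR adjusted p = 0.571), as in 16.3% of all genes in either direction. Of 14 genes of the anaphase-promoting complex, 5 were above 0 and 9 below, with a median of -0.11. Its scaffold and core subunits *Anapc4*, *Anapc5* and *Cdc16* were at -0.24, -0.17 and -0.18.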

How the data were processed

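Raw read counts per gene were deposited for each mouse. The authors mapped strand-specific reads to GRCm38 with TopHat2 and Bowtie2, guided by GENCODE M8, and counted them with featureCounts without normalization; strand and multimapping settings are not given in the sources used here. Identifiers without their version matched GENCODE M21 in 46574 of 47069 cases, and coordinates and exon lengths come from it.

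Counts were tested in R 4.3.3 with edgeR 4.0.16 (TMM, filterByExpr, quasi-likelihood, Benjamini-Hochberg, threshold 0.05), genotype as the only term. Standard errors follow from the F statistic and intervals are 95%. Alternatives were DESeq2 1.42.0, RLE and upper-quartile scaling, no filter, at least 1 CPM in 3 mice, no mitochondrial genes, a replicate block and leaving out each mouse. No sample was left out. Mice are separate animals. Replicate numbers come from the sample titles.

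The members and lists were chosen with earlier results of these data known. Full values were given by a rule: *Mki67*, *Top2a*, the member of lowest p and of highest RPKM per role, members without overlap, and the 3 lowest p per further list. *Tyms*, *Ccnb1*, *Pole* and *Cenpa* were added after their values were seen.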

Additional observations from a re-analysis of the deposited data

How the results depend on the processing

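Genes past the adjusted threshold numbered 3 of all genes tested. They numbered 372 with DESeq2, 552 without a filter on low counts, and 0 with upper-quartile scaling, with the filter of 1 CPM and with the replicate block. With a mouse left out the number ran from 0 to 59, the 59 without *Egr1*-/- replicate 1. Of the 42 cell cycle genes 0 passed, and 1, *Mcm6*, with DESeq2 (2.11% of all genes) and without a filter (1.44%). At an unadjusted p under 0.05 there was 1 member (all genes 10.7%), against 2 with DESeq2 (10.1%), 2 with RLE scaling (10.7%), 7 without a filter (7.49% of 38261 genes, which include those of few counts), 2 with the block (10.8%) and 1 to 5 with a mouse left out (6.38% to 13%), the 5 without *Egr1*+/+ replicate 3 (7.58%). As given beside *Mcm6*, the fit without a filter takes little account of a gene's own spread between mice. The number of members higher in *Egr1*-/-, 6, was 3 to 26 with a mouse left out, and their median log2 fold change ran from -0.46 to 0.05. The summed level differed by -66.8 CPM, and by -116.6 to 25.9 CPM with a mouse left out. Of these, the median and the summed level changed sign, and the count of higher members moved most, without *Egr1*+/+ replicate 1; the cause was not tested.

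Log2 fold changes that changed sign with a mouse left out had these ranges. For replication and S-phase entry they were -0.04 to 0.24 for *Mcm2*, -0.27 to 0.02 for *Mcm3*, -0.01 to 0.23 for *Mcm4*, -0.12 to 0.09 for *Mcm5*, -0.11 to 0.05 for *Rrm1*, -0.17 to 0.25 for *Rrm2*, -0.41 to 0.03 for *Ccne1* and -0.18 to 0.35 for *Ccne2*. For G2/M and the checkpoint they were -0.38 to 0.37 for *Ccna2*, -0.54 to 0.05 for *Ccnb1*, -0.38 to 0.23 for *Ccnb2*, -0.01 to 0.33 for *Foxm1*, -0.48 to 0.01 for *Melk* and -0.45 to 0.20 for *Bub1b*. For the kinases they were -0.37 to 0.39 for *Plk1*, -0.35 to 0.09 for *Aurka*, -0.36 to 0.26 for *Aurkb* and -0.96 to 0.01 for *Cdca8*. For spindle, cytokinesis and chromosome they were -0.61 to 0.22 for *Cenpe*, -0.58 to 0.36 for *Cenpf*, -0.47 to 0.18 for *Kif11*, -0.22 to 0.25 for *Tpx2*, -0.39 to 0.05 for *Kif20a*, -0.54 to 0.34 for *Prc1*, -0.68 to 0.26 for *Mki67* and -0.46 to 0.30 for *Top2a*. List medians ran from -0.32 to 0.08 for further mitosis genes, -0.01 to 0.17 for G1 cyclins, -0.07 to 0.06 for CDK inhibitors and -0.01 to 0.06 for E2F and DREAM regulators. None of these members had passed the test.

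In alternatives that kept all 6 mice, 41 of 42 members kept their direction, the exception being *Tpx2*, whose log2 fold change of -0.04 was 0.00 with the replicate block. Deviations of same-numbered mice from their genotype means correlated at -0.0888, 0.106 and -0.126. For mice of different numbers the correlations ran from -0.171 to 0.233. The replicate numbers thus gave no sign of a pairing. The values cannot exclude one, because the sample titles do not name the litters. With the block 7 members were higher, and the median was -0.17. Depth was lowest for *Cdc25c*, with 7 to 20 counts per mouse, and *Cdca8*, with 12 to 80, and their 95% intervals were the widest of the 42.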
